A study of Homo sapiens with 2 samples.

Results

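The DNA replication machinery was followed as 47 genes, chosen by name, out of 46732 genes listed. They encode the proteins that mark replication origins, load and start the helicase, copy both strands, process the lagging strand and supply nucleotides. The cells were T47D, a long-established human cell line from a luminal breast tumour that expresses the estrogen receptor, grown as secondary mammospheres before RNA sequencing. Mammospheres are clusters grown in suspension on plates that cells cannot attach to. They were cultured for 7 days, passaged and cultured for 7 days again. The 1 control library came from control T47D cells, with no agent named. The 1 other library came from T47D cells labelled as knocked down for CIC (capicua), a transcriptional repressor that is relieved by MAP kinase signalling. The labels do not say how CIC was knocked down or whether control cells carried a matching vector. Duplicates are mentioned in the series design, yet each group has 1 sample and 1 column of values, and whether these pool cultures is not stated. The comparison asks how gene expression in mammospheres differs between control and CIC knockdown cells.

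The CIC mRNA itself had 607 counts in control and 872 in the library labelled CIC knockdown, a ratio of 0.980 after scaling (95% counting interval 0.882 to 1.09). The label was therefore not borne out at the level of CIC mRNA, while ETV4 (ratio 4.62) and ETV5 (ratio 4.93), known CIC targets, were higher. All directions below are between the library labelled CIC knockdown and the control library. The library totals were 47099221 counts for control and 68420805 for the other, 1.45 times as many. All 11 luminal epithelial markers were present, with summed TPM of 10314 in control and 10195 in the other library. KRT5 and KRT14 of the 6 basal markers were at 0 in both libraries, as were 5 of 8 leukocyte, 2 of 6 endothelial and 3 of 7 fibroblast markers. The summed TPM of those lists was 8.38 and 6.71 (basal), 1.14 and 1.36 (leukocyte), 0.0740 and 0.155 (endothelial) and 14.1 and 26.0 (fibroblast). OXTR held most of the basal sum, at 7.43 and 5.95 TPM. COL3A1 held most of the fibroblast sum, at 9.38 and 23.1 TPM. LUM, the next most abundant of the fibroblast list, was lower, at 4.44 and 2.44 TPM. Their part in the results was not tested.

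Replication begins in G1, when the origin recognition complex (ORC), CDC6 and CDT1 load the ring-shaped MCM2-7 helicase onto DNA, a step called licensing that geminin (GMNN) blocks later in the cycle. In S phase CDC45, the GINS complex and MCM10 turn the loaded ring into a moving helicase. Polymerase alpha-primase then lays down primers that polymerases delta and epsilon extend, held to DNA by the PCNA clamp. Many of these genes are transcribed at the G1-to-S transition under E2F factors, so their mRNA is high in dividing cells and low in resting ones.

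Promoters were read from RefSeq windows on GRCh38.p14, each spanning 250 bases before to 50 bases after a transcription start. Of the 47 genes, 41 were matched, with 52 windows, since 9 genes have several starts. GINS4, MCM4, MCM5, POLD3, RPA2 and RPA3 were not matched. The windows were searched on both strands for the E2F core words TTCCCGC and TTGGCGC, and for the CIC octamers TGAATGAA, TCAATGAA, TGAATGGA and TCAATGGA. The 250 bases before the start are shown for the 3 matched genes with the highest ratio (ORC1, CDC45, MCM10) and the 2 with the lowest (RPA1, ORC3). PCNA, the member with the highest level, and PRIM2, which holds a CIC octamer, are shown as well. Capitals mark E2F core words, and in PRIM2 the CIC octamer. The positions are chr1:52404424-52404673 on the minus strand for ORC1, chr22:19479670-19479919 on the plus strand for CDC45 and chr10:13161308-13161557 on the plus strand for MCM10. PCNA lies at chr20:5126623-5126872 on the minus strand and PRIM2 at chr6:57314555-57314804 on the plus strand. RPA1 lies at chr17:1829755-1830004 and ORC3 at chr6:87589885-87590134, both on the plus strand. For genes with several starts the window listed first is shown, which need not be the start with most counts. The PCNA window precedes NM_002592, with 0 and 606 counts, and the window of its main transcript NM_182649, with 6664 and 11924 counts, held no E2F core word. The PRIM2 window precedes NM_001282488, with 0 and 18 counts. The CDC45 window precedes NR_161281, with 0 and 1073 counts. All sequences run 5′ to 3′ along the gene's own strand.
ORC1: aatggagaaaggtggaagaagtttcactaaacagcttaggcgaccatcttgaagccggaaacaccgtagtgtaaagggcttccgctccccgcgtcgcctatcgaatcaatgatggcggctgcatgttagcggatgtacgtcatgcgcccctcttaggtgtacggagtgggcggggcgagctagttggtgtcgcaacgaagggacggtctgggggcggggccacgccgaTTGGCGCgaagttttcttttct
CDC45: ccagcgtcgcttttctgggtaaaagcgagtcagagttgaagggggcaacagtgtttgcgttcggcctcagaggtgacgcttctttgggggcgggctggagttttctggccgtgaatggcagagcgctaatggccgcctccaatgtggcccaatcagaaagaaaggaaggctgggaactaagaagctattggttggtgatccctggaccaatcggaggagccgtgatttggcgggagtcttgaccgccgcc
MCM10: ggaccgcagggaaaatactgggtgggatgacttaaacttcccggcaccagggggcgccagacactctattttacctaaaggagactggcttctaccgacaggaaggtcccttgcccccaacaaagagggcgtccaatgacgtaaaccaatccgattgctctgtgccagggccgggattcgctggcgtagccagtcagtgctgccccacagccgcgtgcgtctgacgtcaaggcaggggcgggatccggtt
PCNA: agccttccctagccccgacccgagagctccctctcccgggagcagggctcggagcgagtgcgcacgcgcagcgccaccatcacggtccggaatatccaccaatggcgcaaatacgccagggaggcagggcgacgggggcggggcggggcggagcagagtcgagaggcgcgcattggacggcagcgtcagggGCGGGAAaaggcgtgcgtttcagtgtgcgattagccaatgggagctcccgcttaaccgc
PRIM2: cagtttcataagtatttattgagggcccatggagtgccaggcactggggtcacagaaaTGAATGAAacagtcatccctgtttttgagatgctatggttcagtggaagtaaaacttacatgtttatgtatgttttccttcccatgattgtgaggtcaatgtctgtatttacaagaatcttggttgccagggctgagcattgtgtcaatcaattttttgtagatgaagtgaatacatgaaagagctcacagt
RPA1: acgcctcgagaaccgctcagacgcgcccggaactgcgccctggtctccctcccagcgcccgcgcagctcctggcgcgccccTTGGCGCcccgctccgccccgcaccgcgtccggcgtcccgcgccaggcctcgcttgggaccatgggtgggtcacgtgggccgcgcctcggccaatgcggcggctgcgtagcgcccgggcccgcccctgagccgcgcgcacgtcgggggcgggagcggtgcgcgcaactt
ORC3: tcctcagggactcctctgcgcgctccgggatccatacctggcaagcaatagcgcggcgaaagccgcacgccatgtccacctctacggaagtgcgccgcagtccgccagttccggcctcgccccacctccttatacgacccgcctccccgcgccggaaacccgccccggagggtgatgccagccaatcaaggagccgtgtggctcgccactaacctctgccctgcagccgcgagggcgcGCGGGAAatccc

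E2F core words were found in 28 of the 52 windows (53.8%), beside 9.23% of all 35116 promoter windows and 13.6% of the 15359 windows of genes that reached 100 counts. Counted by gene, 27 of 41 replication genes held a word in at least 1 window (65.9%), beside 18.0% of 10602 genes that reached 100 counts. Of the 36 words found, 20 began within 100 bases before the start and 5 after it, and 4 overlapped the GC box GGGCGG. Genes with and without the word were both mostly higher in the library labelled CIC knockdown. The median log2 ratio was 0.28 over the 27 genes with a word and 0.37 over the 14 without. CDC45, MCM10, ORC6 and POLA2, all among the 6 highest ratios, held neither exact word. ORC3, the lowest of the matched genes, held 1. Other forms of E2F site were not searched for, and a link between the words and the ratio was not tested. CIC octamers were found in 2 windows, those of PRIM2 and PRIM1 (3.85% of windows, beside 3.77% of all windows and 2.44% of those of genes that reached 100 counts). CCAAT, the NF-Y word, was in 31 windows (59.6%, beside 34.6% of all and 35.0% of those of genes that reached 100 counts). GGGCGG was in 38 (73.1%, beside 45.0% and 66.1%), and by gene in 75.6% of replication genes beside 76.9% of genes that reached 100 counts. TTTGAA, the CHR word of late cell cycle genes, was in 1 window, that of RRM1 (1.92%, beside 15.2% of all and 10.4%). These are matches of letters and not measured binding.

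Nearly all replication genes had more mRNA in the library labelled CIC knockdown, by small amounts. Of the 47 genes, 44 had a ratio above 1, beside 54.1% of the 13722 genes that reached 100 counts in 1 or both libraries. The 95% counting interval lay above 1 for 39 (83.0%, beside 33.8% of all genes) and below 1 for 2, RPA2 and ORC3 (4.26%, beside 27.3%). At least 25% higher were 20 genes (42.6%, beside 12.8%), and none was lower by the same fold, that is by 20% (beside 9.71%). Of these, 3 were at least 1.5-fold higher, ORC1, CDC45 and MCM10 (6.38%, beside 4.28%), and none was 1.5-fold lower (beside 3.43%). None reached 2-fold in either direction, beside 1.17% of all genes higher and 0.962% lower. The median log2 ratio was 0.28, with quartiles of 0.14 and 0.42, while over all genes tested it was 0.02, with quartiles of -0.13 and 0.18. All 47 genes passed the minimum of 100 counts, with 382 to 14158 counts per library. The shares over all genes include genes with fewer counts than any member. Of 8819 genes with mean scaled counts within the members' range, 3255 were higher by interval and 2488 lower. At least 25% higher were 756 of the 8819, and 600 were lower by the same fold. At least 1.5-fold higher were 172, and 186 were 1.5-fold lower. Each group was 1 library, so there was no test, and the intervals cover counting error only, not the spread between cultures. In RNA from whole cultures, a different share of cells making a transcript and a different amount of it per cell cannot be told apart.

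**Figure D1:**
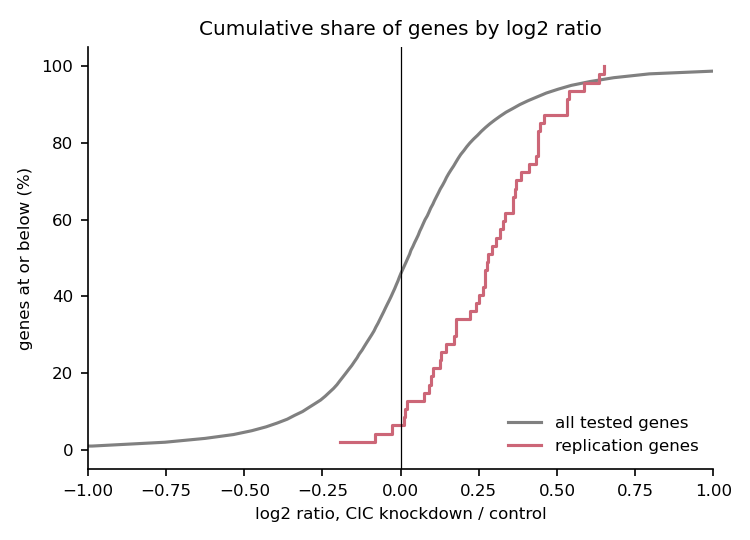
Cumulative share of genes (vertical axis, %) by log2 ratio of the library labelled CIC knockdown to control (horizontal axis), for all 13722 genes tested and the 47 replication genes. The replication genes lie to the right, with a median of 0.28 against 0.02, and end at 0.65, before the upper tail of all genes, which runs beyond the plot.

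**Figure D2:**
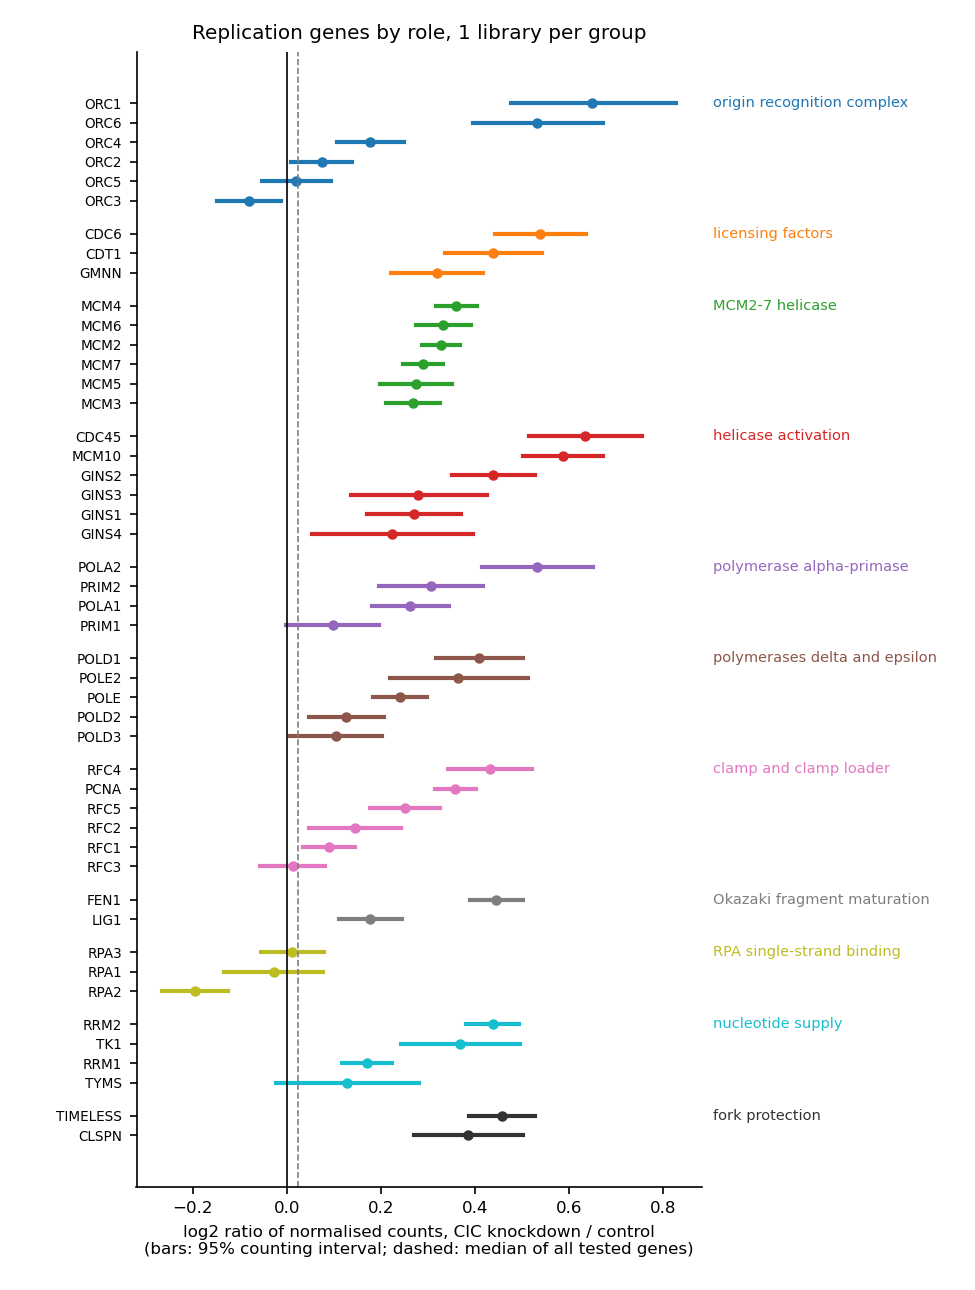
Log2 ratio of normalised counts (horizontal axis) for each of the 47 replication genes, grouped by role, with bars for the 95% counting interval and a dashed line at the median of all genes tested. The 6 MCM2-7 subunits lie close together between 0.27 and 0.36, the ORC subunits spread from -0.08 to 0.65, and the 3 RPA subunits lie at or below 0.01.

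The 6 ORC subunits, which bind origins, did not move as one. ORC1 (gene 4998, GRCh38 chromosome 1, 52372829 to 52404471), the ATPase subunit that is degraded after licensing in many cells, had 382 counts in control and 880 in the other library. Its ratio of 1.57 (1.39 to 1.78) was the highest of the 47. ORC6 (chromosome 16, 46689646 to 46698394) had 630 and 1337 counts, for a ratio of 1.45 (1.32 to 1.59). The core subunits stood nearer to equal levels. ORC2 had 3198 and 4936 counts (1.05, 1.01 to 1.10) and ORC4 2535 and 4204 (1.13, 1.08 to 1.19). ORC5 had 2498 and 3715 counts and overlapped a ratio of 1 (1.01, 0.964 to 1.07). ORC3 had 3008 and 4170 counts and was lower (0.946, 0.902 to 0.991). The median log2 ratio of ORC1 and ORC6 was 0.59, and that of ORC2 to ORC5 was 0.05. Per length, ORC1 was also the scarcest subunit, at 2.63 and 4.23 TPM, whereas ORC5 was the most abundant in both libraries, at 27.6 and 28.4 TPM. The highest TPM of the 6 subunits was thus 10.5 times the lowest in control and 6.72 times in the other library.

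The licensing factors and their inhibitor were all higher. CDC6 (chromosome 17, 40287878 to 40304657), the ATPase that brings MCM2-7 to ORC, had 1268 and 2701 counts, for a ratio of 1.45 (1.36 to 1.55). CDT1 (chromosome 16, 88803789 to 88809258), which carries the helicase to the origin, had 1144 and 2275 counts, for a ratio of 1.36 (1.26 to 1.46). GMNN, the inhibitor of CDT1, had 1311 and 2398 counts, a log2 ratio of 0.32 that also lay above equality by its interval. The log2 ratio of CDT1 exceeded that of GMNN by 0.12, with a counting interval of -0.02 to 0.26 that includes 0. In TPM, CDT1 stood at 0.588 times the level of GMNN in control and 0.621 times in the other library.

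The MCM2-7 helicase genes were higher together and by nearly the same factor. MCM2 (chromosome 3, 127598357 to 127622436) had 7690 and 14158 counts and MCM7 (chromosome 7, 100092728 to 100101940) had 6936 and 12441. MCM4 had 6460 and 12164 counts, MCM3 3778 and 6673, MCM6 3731 and 6893, and MCM5 2140 and 3796. The ratios ran from 1.20 for MCM3 to 1.28 for MCM4, and all 6 intervals lay above 1. The highest of the 6 ratios was 1.07 times the lowest. On the log2 scale MCM4 stood 0.09 above MCM3, a small difference whose counting interval (0.02 to 0.16) did not include 0. Their levels were less even than their ratios. MCM7 had the highest level of the 6, at 56.1 and 70.0 TPM, and MCM5 the lowest, at 13.4 and 16.6 TPM, 4.18-fold apart in control and 4.22-fold in the other library.

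The genes that activate the helicase were all higher, with CDC45 and MCM10 ahead of GINS. CDC45 (gene 8318, chromosome 22, 19479294 to 19520612), the subunit that completes the active helicase, had 809 and 1843 counts, for a ratio of 1.55 (1.43 to 1.69). Of these counts, 0 and 1073 were assigned to the non-coding transcript NR_161281. The ratio is thus of the gene total and does not show more coding CDC45 mRNA. MCM10 (gene 55388, chromosome 10, 13161558 to 13211110), an origin firing factor that is not part of the ring, had 1640 and 3614 counts, for a ratio of 1.50 (1.42 to 1.59). GINS2 had 1550 and 3083 counts, for a ratio of 1.36 (1.28 to 1.44). GINS1, with 1253 and 2216 counts, GINS3, with 616 and 1097, and GINS4, with 445 and 762, had ratios of 1.21, 1.21 and 1.17. The interval of GINS4 (1.04 to 1.32) was wide because its counts were few. The ratio of GINS2 was higher than that of GINS4 by 0.22 on the log2 scale (counting interval 0.03 to 0.41).

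Among the 4 genes of polymerase alpha-primase, which makes the primers, POLA2 stood apart. POLA2 (chromosome 11, 65261917 to 65306269), the accessory subunit, had 865 and 1835 counts, for a ratio of 1.45 (1.33 to 1.57). The catalytic subunit POLA1 had 1882 and 3310 counts (1.20, 1.13 to 1.27), and the large primase subunit PRIM2 1033 and 1873 (1.24, 1.15 to 1.34). The small, catalytic primase subunit PRIM1 had 1347 and 2113 counts and overlapped a ratio of 1 (1.07, 0.999 to 1.15).

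In the replicative polymerases, the catalytic subunit of polymerase delta differed from its partners. POLD1 (chromosome 19, 50384291 to 50418018) had 1416 and 2759 counts, for a ratio of 1.33. Its accessory subunits POLD2, with 2056 and 3290 counts, and POLD3, with 1402 and 2210, had ratios of 1.09 (1.03 to 1.15) and 1.08 (1.01 to 1.15). The log2 ratio of POLD1 was 0.28 above that of POLD2 (0.16 to 0.41) and 0.31 above that of POLD3 (0.17 to 0.44). For polymerase epsilon, the leading-strand enzyme, POLE had 3932 and 6812 counts (1.18, 1.14 to 1.23) and its subunit POLE2 584 and 1103 (1.29, 1.16 to 1.43). Their log2 ratios differed by 0.12, with a counting interval of -0.03 to 0.28 that includes 0.

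PCNA (gene 5111, chromosome 20, 5114953 to 5126622), the sliding clamp, was the most abundant of the 47 genes per length. It had 6664 and 12530 counts, or 113 and 148 TPM, a ratio of 1.28 (1.24 to 1.32). The loader that opens the clamp was uneven. RFC4 (chromosome 3, 186789892 to 186806695) had 1543 and 3053 counts, for a ratio of 1.35 (1.27 to 1.44), and RFC5 2306 and 4027, a ratio of 1.19. RFC2, with 1392 and 2257 counts, and the large subunit RFC1, with 4300 and 6708, had ratios of 1.11 and 1.06. RFC3, with 2803 and 4145 counts, overlapped a ratio of 1 (1.01, 0.961 to 1.06). RFC4 was also the loader gene that moved with the gene models, since its log2 ratio was 0.43 in the annotated table and 0.23 in the table with assembled transcripts.

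The nuclease and ligase that finish lagging-strand fragments were both higher. FEN1 (chromosome 11, 61792911 to 61797238), which cuts the primer flap, had 3832 and 7651 counts, for a ratio of 1.36 (1.31 to 1.42). LIG1, which seals the nick, had 2844 and 4718 counts, for a ratio of 1.13 (1.08 to 1.19). FEN1 thus stood 0.27 above LIG1 on the log2 scale (0.18 to 0.35).

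RPA, the trimer that coats single-stranded DNA in replication and also in repair, was the role group with no higher member by interval. RPA2 (gene 6118, chromosome 1, 27891524 to 27914797) had 2931 and 3754 counts, for a ratio of 0.874 (0.832 to 0.917), the lowest of the 47. RPA1 had 1235 and 1776 counts (0.981, 0.912 to 1.06) and RPA3 2943 and 4351 (1.01, 0.962 to 1.06). RPA2 stood at 39.8 TPM in control and 35.6 in the other library. The trimer's genes were not evenly abundant, since RPA1 stood at 5.98 and 7.44 TPM, higher by TPM but not by counts.

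Of the nucleotide supply genes, those of the S-phase form of ribonucleotide reductase and of thymidine salvage were higher. RRM2 (chromosome 2, 10122568 to 10131419), the reductase subunit made in S phase, had 3850 and 7648 counts, for a ratio of 1.35 (1.30 to 1.41). Its partner RRM1, which is long-lived, had 4446 and 7336 counts, for a ratio of 1.13 (1.08 to 1.17), so the RRM2 level went from 0.832 to 0.996 times that of RRM1 in TPM. TK1, thymidine kinase, had 784 and 1485 counts, for a ratio of 1.29 (1.18 to 1.41). TYMS, thymidylate synthase, had 580 and 930 counts and overlapped a ratio of 1 (1.09, 0.985 to 1.22). The fork protection genes were higher as well. TIMELESS had 2499 and 5032 counts, for a ratio of 1.37 (1.31 to 1.44), and CLSPN, the claspin adaptor of the checkpoint kinase, 922 and 1767, a ratio of 1.31 (1.21 to 1.42).

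The order of the 47 levels was similar in both libraries. In TPM, PCNA, MCM7 (56.1 and 70.0), MCM2 (48.3 and 62.2) and FEN1 (41.0 and 57.3) led in both, and CLSPN (3.45 and 4.67), ORC1 and GINS4 (2.57 and 3.06) came last. The summed TPM of the 47 genes was 922 in control and 1141 in the other library. By TPM, 45 of the 47 were higher in the latter, all but RPA2 and ORC3. The share of all genes higher by TPM was not computed, and the median log2 ratio of all genes tested was itself 0.06 by TPM. With 1 library per group, neighbours in this order cannot be told apart beyond their spread. Across the 47 genes, the log2 ratio was weakly lower at higher levels (Spearman's rho -0.25 with log10 TPM). It varied little with transcript length (rho 0.04). Both values only describe genes that share these 2 libraries.

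**Figure D3:**
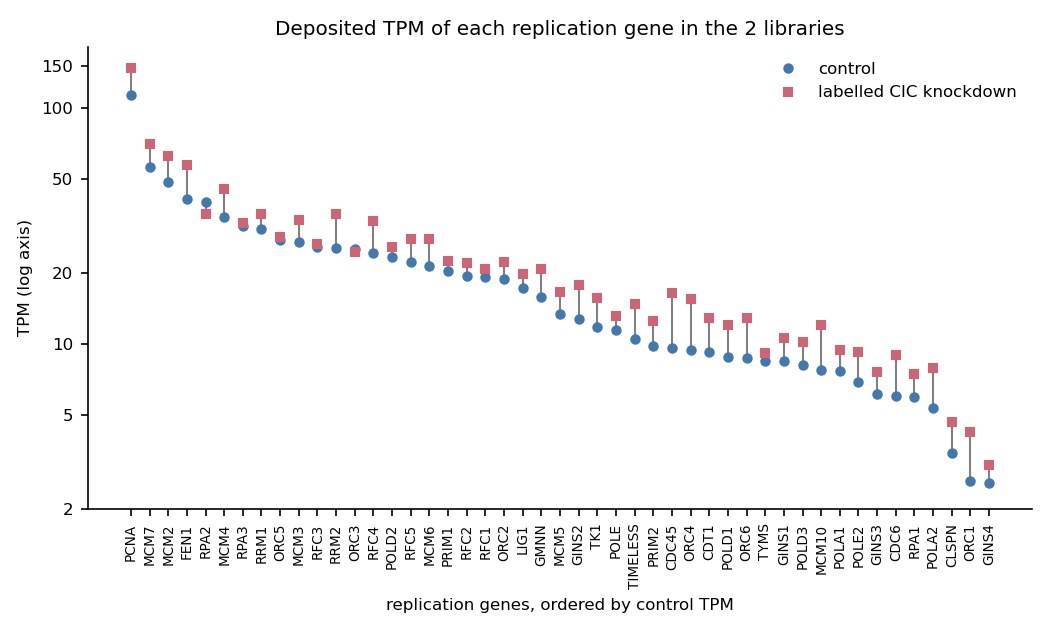
Deposited TPM (vertical log axis) of the 47 replication genes in the control library (circles) and the library labelled CIC knockdown (squares), ordered by control TPM. The values run from 113 and 148 TPM for PCNA to 2.57 and 3.06 TPM for GINS4. The squares lie above the circles for all of these genes but RPA2 and ORC3. Genes outside the 47 are not shown.

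Gene totals were steadier than their division among transcripts. For each gene, the share of counts that was divided differently between the libraries is the smallest share that would have to move between transcripts to make both divisions equal. It was over 20% in 12 of the 47 genes, and 6 genes have only 1 annotated transcript. The share was not computed for other genes, so whether 12 of 47 is many is not known. In POLD1, 93.5% of counts were divided differently: NM_001308632 held 88.5% in control and 0.254% in the other library, while NM_002691 went from 3.95% to 69.6%. In TIMELESS, where the share was 90.7%, the non-coding NR_138471 held 92.2% in control and 1.51% in the other library, and NM_003920 went from 0.240% to 75.0%. These transcripts are 5146 and 5158 bases long. In CDC45 the share was 78.7%, with XM_024452277 at 69.3% and 1.52% and the non-coding NR_161281 at 0% and 58.2%. Whether such divisions differ between cultures of 1 group was not tested.

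Where the transcripts differ much in length, the division changes the TPM. The log2 ratios from TPM and from counts lay within 0.1 of each other for 42 genes and further apart for 5, namely ORC4, RPA1, POLD3, ORC2 and CDC45. ORC4 stood at 9.42 TPM in control and 15.5 in the other library, a log2 ratio of 0.71 from TPM but 0.18 from counts. Its transcript XM_017004226, of 2822 bases, held 0.0394% and 41.2% of the gene's counts, and the mean transcript length went from 6168 to 4877 bases. RPA1 stood at 5.98 and 7.44 TPM, 0.31 from TPM but -0.03 from counts. Its transcript XM_024450863, of 3402 bases, held 20.8% and 81.8% of the counts.

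**Figure D4:**
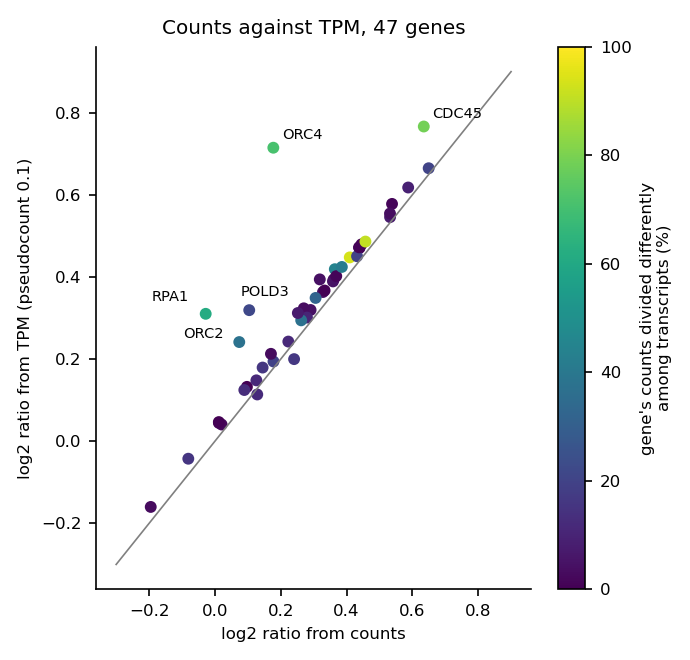
Log2 ratio from deposited TPM (vertical axis) against log2 ratio from counts (horizontal axis) for the 47 genes, with the line of equality and the share of counts divided differently among transcripts as colour (%). Of the 5 genes named, ORC4 (0.71 against 0.18) and RPA1 (0.31 against -0.03) lie farthest above the line.

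Overlap with other transcribed genes touched 10 of the 47. It was measured between whole gene spans, introns included. All overlaps with a gene of known strand were with genes on the opposite strand, and the labels do not say whether counting used the strand. TYMS shares 3261 bases with ENOSF1, which had 3348 and 3825 counts, a log2 ratio of -0.36 against 0.13 for TYMS. RPA3 shares 77856 bases with UMAD1, which had 717 and 822 counts. The only annotated RPA3 transcript is 2020 bases long, so most of that shared span lies outside its exons. TK1 shares 2103 bases with AFMID, which had 709 and 921 counts. ORC3, which was lower by interval, shares 2965 bases with AKIRIN2, which had 671 and 1044 counts. RFC5 shares 878 bases with WSB2, which had 2676 and 4807 counts. The shared span was only 3 bases for GINS2 and 6 for RFC4. How much of each span lies in exons was not computed, so how far the overlaps affect these 10 genes is not known. Of 10 pseudogenes found by the names of the 47 genes, RRM2P3, with 39 and 36 counts, and FEN1P1, with 5 and 9, were the most counted.

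Other genes of replication, in a list of 33, were mostly higher too. By interval 25 were higher and 2 lower (beside 33.8% and 27.3% of all genes tested), 15 were at least 25% higher (beside 12.8%), and the median log2 ratio was 0.28. TICRR, which helps load CDC45, had 730 and 1671 counts (log2 ratio 0.64), and UHRF1, which guides DNA methylation behind the fork, 2174 and 4934 (0.63). Lower were POLD4, the smallest subunit of polymerase delta, with 1387 and 898 counts (-1.18), and CHTF8, a subunit of an alternative clamp loader, with 1175 and 910 (-0.92). POLD4 thus lay on the other side from POLD1, at 18.0 and 8.03 TPM. Neither lower gene is one of the 47.

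The list of 19 E2F and pocket protein factors also holds E2F partners, subunits of the DREAM complex and MYBL2. Of these 19, 12 were higher and 3 lower by interval, beside the same 33.8% and 27.3%, with a median log2 ratio of 0.30. MYBL2, a transcription factor of the late cell cycle, had 2015 and 5199 counts (0.81), and LIN54, the DNA-binding subunit of the DREAM and MYB-MuvB complexes, 1393 and 3252 (0.67). The lowest were RBL2 (p130), the pocket protein of resting cells, with 4914 and 6389 counts (-0.17), and the E2F partner TFDP2, with 2298 and 3068 (-0.14). E2F1, named after its value was seen, had 1243 and 2271 counts, a log2 ratio of 0.32.

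The remaining lists had lower medians, and their counts by interval are again to be read beside 33.8% higher and 27.3% lower of all genes tested. Of 14 other nucleotide supply genes, 8 were higher and 3 lower by interval (median 0.12). They ranged from the nucleoside transporter SLC29A1 at 0.52 (560 and 1177 counts) and CTP synthase CTPS1 at 0.46 (1018 and 2051) down to mitochondrial thymidine kinase TK2 at -0.24 (467 and 580) and RRM2B at -1.13. RRM2B, the p53-inducible reductase subunit, had 66.3 and 31.7 TPM, so these alternative small subunits differed in direction, with RRM2 at 25.5 and 35.4 TPM. Of 10 replication checkpoint genes, 6 were higher and 2 lower (median 0.12), from CHEK1 at 0.42 and ATRIP at 0.41 to ATR at -0.14 and RAD17 at -0.21. Of 13 translesion and repair polymerase genes, 5 were higher and 3 lower (median 0.03), near those shares. POLN (66 and 141 counts) at 0.53 and POLH at 0.44 were highest, and POLI at -0.19 and PRIMPOL at -0.20 lowest.

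**Figure D5:**
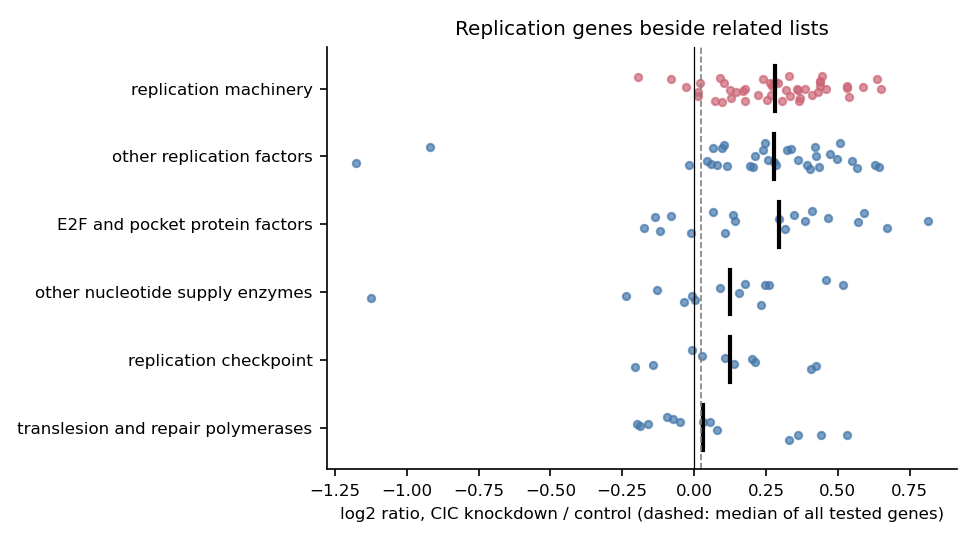
Log2 ratio (horizontal axis) of each gene in the replication machinery and in 5 related lists (vertical axis, points scattered for visibility), with black bars at list medians and a dashed line at the median of all genes tested. The medians are 0.28, 0.28, 0.30, 0.12, 0.12 and 0.03 from top to bottom, and POLD4, RRM2B and CHTF8 lie far to the left of the rest.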

How the data were processed

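RNA of 2 libraries was sequenced with a strand-specific total RNA kit, per the labels' protocols. Trimmomatic, HISAT2 and StringTie, with build GRCh38 (hg38), are listed in the submitters' processing notes. The deposited tables give estimated counts, which follow coverage and were whole as deposited, FPKM and TPM, per the file headers, which the authors computed for RefSeq transcripts and genes. Columns marked KD were matched to the CIC knockdown sample by title and columns marked C to control, and 0 columns lacked a sample.

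Counts were scaled by TMM (edgeR 4.0.16, R 4.3.3), with factors of 0.995 and 1.00. Log2 ratios used a prior count of 2. Intervals are exact Clopper-Pearson 95% intervals conditional on the summed count. For the difference of 2 log2 ratios, a normal approximation to Poisson counts was used, for 16 gene pairs chosen after values were seen. Code was tested on simulated data. Genes that reached 100 counts in 1 or both libraries were compared. Intervals would be too narrow if mates were counted separately. The 47 members and all lists were chosen with earlier results of these data known. All 47 are named. Of the 5 other lists, the rule names the 2 highest and 2 lowest with at least 100 counts. DESeq2 1.42.0 size factors were an alternative. The motif words, and PCNA and PRIM2 as promoters to show, were chosen after expression values were known.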

Additional observations from a re-analysis of the deposited data

Results flagged for a closer look

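Among assembled splice variants of the replication genes, 8 had more counts in the library labelled CIC knockdown than in control after scaling, by an interval above 1. They are values of the deposited list of assembled variants, which the comparisons above do not use. The share of all assembled variants that were higher was not computed, so whether 8 is many is not known. RRM2 variant MSTRG.10800.1 had 13 counts in control and 3999 in the other library, or 0.337% and 53.0% of the gene's counts. POLE variant MSTRG.5112.6 had 528 and 3724 counts, or 13.0% and 53.2%. POLD1 variant MSTRG.10601.6 had 0 and 747 counts, a ratio of 171 with control set at a floor of 3 counts. The 95% counting interval of the ratio began lower, at 139. RPA1 variant MSTRG.8156.5 had 0 and 802 counts, a ratio of 184 with the same floor, while its interval began at 149. These intervals cover counting error only, not how a gene's counts were divided among its transcripts. RFC4 variant MSTRG.14707.4 had 178 and 1323 counts, while the other RFC4 variant, MSTRG.14707.1, had 248 and 25. MCM7 variant MSTRG.18336.4 had 2918 and 8208 counts. POLD2 variant MSTRG.18033.4 had 1396 and 2408 counts, and ORC6 variant MSTRG.7719.3 had 285 and 502. The gene totals moved far less: with assembled transcripts, RRM2 had 3862 and 7547 counts and POLE 4046 and 7003. Whether such divisions differ between replicate cultures was not tested.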

How the results depend on the processing

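Under the 11 alternatives, 1 gene changed direction: RPA1, whose counting interval included equality, had a log2 ratio of -0.03 from counts, 0.31 from TPM and 0.29 from FPKM. The other 46 kept theirs wherever they were tested. The median log2 ratio of the replication genes ran from 0.28 to 0.32, the latter from deposited TPM, where the median of all genes was 0.06 in place of 0.02. The number at least 25% higher ran from 19 to 24. The 19 are of only 44 genes, those that reached 1000 counts in 1 or both libraries. The number higher by interval ran from 36, with counts halved, to 40. It could not be computed from TPM or FPKM, which hold no counts. Log2 ratios of single genes left their counting interval for 5 genes in TPM, 5 in FPKM and 1, RFC4, in the table with assembled transcripts. No paired analysis was possible because each group has 1 library. No replicate could be left out. Precision is limited by the 382 counts of ORC1, the fewest of any member.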

Other observations

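Assembled variants of 2 other replication genes were lower in the library labelled CIC knockdown. The share of all assembled variants that were lower was not computed, so whether this is many is not known. MCM4 variant MSTRG.19051.1, of 16 exons, had 5189 counts in control and 858 in the other library, or 79.7% and 7.00% of the gene's counts, while the MCM4 total was 6513 and 12258. ORC2 variant MSTRG.11877.8 had 354 and 188 counts, or 11.3% and 3.79%. RFC5 variant MSTRG.4959.13 had 685 and 963 counts and overlapped a ratio of 1 (0.877 to 1.07).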
